A study of Saccharomyces cerevisiae with 12 samples.

Results

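The 9 genes described here encode enzymes that make, interconvert or burn one-carbon units in Saccharomyces cerevisiae: FDH1 (YOR388C), GCV1 (YDR019C), GCV2 (YMR189W), GCV3 (YAL044C), SHM1 (YBR263W), SHM2 (YLR058C), MTD1 (YKR080W), MIS1 (YBR084W) and ADE3 (YGR204W). They were chosen by gene symbol, with earlier results of these data known. All 9 were measured, and they are 9 of the 5449 genes named in a table of 5716 probe sets. Each had 1 probe set, so the rule of taking the brightest one made no choice. Transcripts were measured on Affymetrix arrays in 4 groups of 3 biological replicates, 12 arrays in all: YSBN2 in glucose-limited chemostat, YSBN2 in aerobic batch, CEN.PK 113-7D in glucose-limited chemostat and CEN.PK 113-7D in aerobic batch. YSBN2 is a prototroph of FY background with the disrupted alleles ho::Ble/ho::HphMX4, and the labels state no ploidy or mating type for it. CEN.PK 113-7D is labelled a prototroph of mating type a. Every culture ran at 30 °C and pH 5.0 in aerobic 4 L reactors. Batches started at 30 g/L glucose. The chemostats turned over at 0.1 per h on a feed that held 0.3 g/L ethanol besides 7.5 g/L glucose.

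One-carbon units travel on tetrahydrofolate. Serine hydroxymethyltransferase takes a carbon from serine and leaves glycine, and the mitochondrial glycine cleavage complex takes a further carbon from glycine and releases carbon dioxide and ammonia. Trifunctional C1-tetrahydrofolate synthases, one cytosolic and one mitochondrial, interconvert the methylene, methenyl and formyl forms and free formate, and the carbon is spent on purines, thymidylate and methionine. Formate that is not bound to folate can be oxidised to carbon dioxide by formate dehydrogenase.

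The values were read as log2 signals, where 1 unit is a doubling of signal. The lowest value was 1.69, and dim probe sets gather at a floor near 2. A difference is given with its standard error (SE) from limma, with levels as mean ± SD over 3 arrays. A gene is called where its p-value, adjusted over all 5716 probe sets, is under 0.05. Signals are relative amounts in extracted RNA, so a lower signal need not mean less of that transcript per cell. Setting every array to a common median shifted the middle of all differences by -0.28 for the chemostat effect in CEN.PK 113-7D and by -0.13 for that in YSBN2. It moved the strain difference by -0.10 in batch and by 0.05 in the chemostat. Of the calls, 60.4% were higher as deposited and 40.4% with a common median for the CEN.PK 113-7D chemostat effect. The matching shares were 63.8% and 50% for the strain difference in batch. For the strain difference of the chemostat effect they were 28.1% and 45.9%.

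HO, the disrupted gene, lay between 2.11 and 2.39 in the 6 YSBN2 arrays and between 11.46 and 12.62 in the CEN.PK 113-7D arrays. STE2, the alpha-factor receptor gene of a cells, lay between 5.31 and 9.36 in YSBN2 and between 12.84 and 14.33 in CEN.PK 113-7D. HXT1, a low-affinity glucose transporter gene, fell in the chemostat by 11.07 ± 0.35 in YSBN2, and its difference was -10.11 ± 0.35 in CEN.PK 113-7D. The alpha-specific genes of the check were mixed in the chemostat. STE3 and SAG1 did not separate the strains there: STE3 averaged 9.44 ± 0.42 in YSBN2 and 9.24 ± 0.49 in CEN.PK 113-7D, and SAG1 9.32 ± 0.48 in YSBN2 and 9.09 ± 0.28 in CEN.PK 113-7D (SD, n = 3 each). MF(ALPHA)1 did, at 8.90 ± 0.47 in YSBN2 and 4.10 ± 0.32 in CEN.PK 113-7D, without overlap (adjusted p = 0.0028). MF(ALPHA)2 lay at the floor in the chemostat of both strains. In CEN.PK 113-7D STE3 was higher in the chemostat than in batch by 4.97 ± 0.52. The third YSBN2 batch array stood apart: 196 probe sets lay at least 2 units from the mean of the other arrays of its group, against at most 77 in any other array. The hexose transporter gene HXT2 read 4.26, 4.21 and 14.04 in the YSBN2 batch arrays. Of the 9 genes only MTD1 departed by more than 0.2 in that array.

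In the YSBN2 chemostat against YSBN2 batch, 1 of the 9 genes was called higher (FDH1), 7 were called lower and 1 was not called (SHM1). Over all probe sets 52.6% were called, 30.6% higher and 21.9% lower. In CEN.PK 113-7D 1 was called higher (FDH1), 5 lower and 3 not (GCV1, GCV2 and SHM1), where 56.1% of all probe sets were called, 33.9% higher and 22.2% lower. With the replicate number as a block within the CEN.PK 113-7D arrays, GCV1 was called lower too (adjusted p = 0.0496). The median difference of the 9 genes was -0.97 in YSBN2, against 0.06 over all probe sets, and -0.28 in CEN.PK 113-7D, against 0.09 over all probe sets. With a common median all 8 genes other than FDH1 were called lower in each strain, where 27.4% of all probe sets were called lower in YSBN2 and 37.5% in CEN.PK 113-7D. In YSBN2 the chemostat arrays lay wholly above the batch arrays for 1 of the 9 genes and wholly below for 7, where 33.3% and 25.5% of all probe sets did so, 58.8% in all. In CEN.PK 113-7D the counts were 1 above and 6 below, where 39.9% and 28.6% of all probe sets did so, 68.5% in all.

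Between the strains in batch, 3 of the 9 genes were called higher in YSBN2 (the glycine cleavage genes) and 0 lower, where 29.1% of all probe sets were called, 18.5% higher and 10.5% lower. The YSBN2 arrays lay wholly above for those 3 and wholly below for 0, against 24.2% and 15.9% of all probe sets, 40.1% in all. In the chemostat 5 were called lower in YSBN2 (FDH1, GCV1, SHM2, MTD1 and ADE3) and 0 higher, where 28.2% of all probe sets were called, 15.3% lower and 12.9% higher. Arrays lay wholly above for 1 and wholly below for 6, against 24.8% and 25.7% of all probe sets, 50.5% in all. The chemostat effect itself differed between the strains for 4 genes (FDH1, GCV1, GCV2 and ADE3), each time lower in YSBN2, and for 0 in the other direction, where 15.4% of all probe sets were called, 11.1% lower and 4.34% higher. By limma's unadjusted p under 0.05 these counts of 0 were also 0. All these comparisons share arrays with one another. Because the genes, FDH1 among them, were chosen with earlier results known, the counts describe them beside the shares and test nothing about the set.

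FDH1 encodes NAD-dependent formate dehydrogenase. It was at the floor in batch and above the array median on every chemostat array of both strains. In YSBN2 its probe set read 12.53, 12.92 and 12.52 in the chemostat, against 2.13, 2.13 and 2.12 in batch. In CEN.PK 113-7D it read 14.62, 14.93 and 15.11 in the chemostat, against 2.13, 2.12 and 2.12 in batch. The culture groups were far apart and the 6 batch arrays nearly identical. The chemostat difference was 10.53 ± 0.13 in YSBN2 and 12.76 ± 0.13 in CEN.PK 113-7D, the 13th and the 2nd largest in size of all 5716 probe sets. Both are given as a description, because the size of the CEN.PK 113-7D rise was known when the gene was chosen. Their size depends on the floor: with all values under 6 raised to 6 they were 6.66 and 8.88.

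The chemostat levels of FDH1 do not involve the floor. There FDH1 was lower in YSBN2 (12.66 ± 0.23, n = 3) than in CEN.PK 113-7D (14.88 ± 0.25, n = 3), with no overlap between the arrays. The difference of -2.23 ± 0.13 is 4.68-fold in signal. It too is given as a description, because the CEN.PK 113-7D chemostat level is part of the rise known when the gene was chosen. Across all probe sets, 2.9% differed by at least as much. FDH2 had no probe set named to it, and whether the FDH1 probe set also reads its transcript was not tested. In batch both strains sat at the floor (2.13 ± 0.01 in YSBN2 and 2.13 ± 0.01 in CEN.PK 113-7D), where the arrays hold no order, so the difference of the chemostat effect, -2.23 ± 0.19, restates the chemostat comparison.

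**Figure D1:**
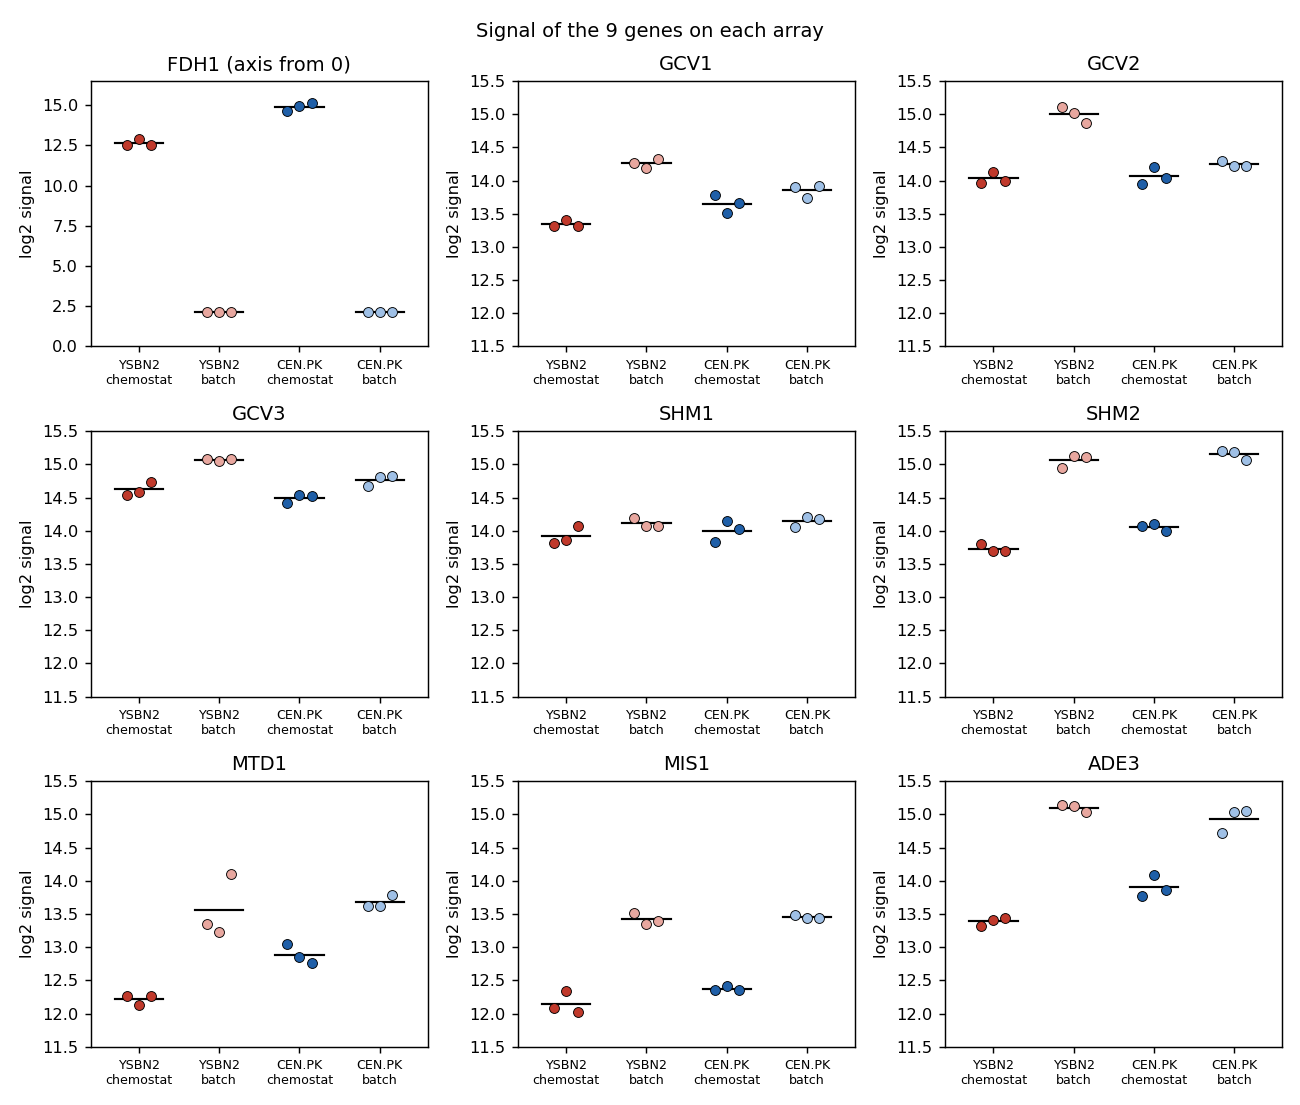
The log2 signal of each of the 9 genes on each array is plotted by group, with 1 point per array and a line at the group mean of 3 arrays. FDH1, on an axis from 0, moves between about 2.13 in batch and 12.66 or 14.88 in the chemostat, while the group means of every other gene lie within 2 units of each other.

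The chemostat effect on glycine cleavage genes differed between the strains for GCV1 and GCV2. GCV1 encodes the T protein, which hands the carbon to tetrahydrofolate, GCV2 the P protein, the glycine decarboxylase itself, and GCV3 the H protein, the lipoyl-bearing shuttle between the other subunits. All of them were called lower in the YSBN2 chemostat than in YSBN2 batch. In CEN.PK 113-7D GCV3 alone was called in the fit without pairing of replicates.

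GCV1 read 13.32, 13.41 and 13.32 in the YSBN2 chemostat, against 14.27, 14.19 and 14.32 in YSBN2 batch, a fall by 0.91 ± 0.08 (1.88-fold, adjusted p = 1.79e-05). In CEN.PK 113-7D it read 13.78, 13.51 and 13.66 in the chemostat, against 13.91, 13.73 and 13.91 in batch, and the arrays overlapped (-0.20 ± 0.08, adjusted p = 0.0701). YSBN2 minus CEN.PK 113-7D, the chemostat effects differed by -0.71 ± 0.12 (adjusted p = 0.00395). For GCV1 in CEN.PK 113-7D several settings gave a call: the replicate number as a block within the 6 arrays (adjusted p = 0.0496), leaving out the second batch array (0.0427) or the first chemostat array (0.0308), quantile normalization (-0.30) and a common median (-0.49).

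GCV2 read 13.97, 14.13 and 13.99 in the YSBN2 chemostat, against 15.11, 15.02 and 14.87 in YSBN2 batch, a fall by 0.97 ± 0.09 (1.96-fold, adjusted p = 1.52e-05). The CEN.PK 113-7D arrays read 13.95, 14.20 and 14.04 in the chemostat, against 14.30, 14.22 and 14.23 in batch (-0.19 ± 0.09, adjusted p = 0.0993). The cultures of neither strain overlapped, with a far smaller gap in CEN.PK 113-7D. Of the 8 genes other than FDH1, GCV2 had the strain gap of largest size in its chemostat effect, -0.78 ± 0.12 (adjusted p = 0.00301). In CEN.PK 113-7D the GCV2 effect was called without the second chemostat array (-0.25, adjusted p = 0.0449), with quantile normalization (-0.28) and with a common median (-0.47).

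GCV3 moved less. It read 14.54, 14.59 and 14.73 in the YSBN2 chemostat, against 15.08, 15.05 and 15.08 in YSBN2 batch (-0.45 ± 0.07, adjusted p = 0.000585). In CEN.PK 113-7D it read 14.42, 14.54 and 14.52 in the chemostat, against 14.67, 14.81 and 14.83 in batch (-0.28 ± 0.07, adjusted p = 0.00868). Neither pair of groups overlapped. The strain difference of these effects was -0.17 ± 0.10, with a 95% interval from -0.40 to 0.05 (adjusted p = 0.303). The CEN.PK 113-7D call of GCV3 was lost with cyclic loess (-0.17, adjusted p = 0.122).

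Batch cultures of the strains differed in all genes of this complex. GCV2 was higher in YSBN2 batch than in CEN.PK 113-7D batch by 0.75 ± 0.09 (1.68-fold, adjusted p = 0.000218). GCV1 was higher by 0.41 ± 0.08 (adjusted p = 0.00626) and GCV3 by 0.30 ± 0.07 (adjusted p = 0.0117), and in all of the complex's genes every YSBN2 batch array lay above every CEN.PK 113-7D batch array. GCV3 lost its batch call with a common median (0.20, adjusted p = 0.117). With the replicate number as a block within the 6 batch arrays, GCV1 and GCV3 were not called (adjusted p = 0.0646 and 0.118). In the chemostat the order was mixed: GCV1 was lower in YSBN2 by -0.30 ± 0.08 (adjusted p = 0.0255), while GCV2 differed by -0.03 ± 0.09, with a 95% interval from -0.23 to 0.17, and GCV3 by 0.13 ± 0.07 (adjusted p = 0.212). The GCV1 chemostat call was lost with a common median (adjusted p = 0.0759), with quantile normalization (0.0504), or without the first or the third array of either group (adjusted p from 0.0689 to 0.0784). It was also lost with the replicate number as a block within the 6 chemostat arrays (adjusted p = 0.102). From the highest group to the lowest, GCV1 ran from YSBN2 batch through CEN.PK 113-7D batch and CEN.PK 113-7D chemostat, which overlapped each other, to YSBN2 chemostat. GCV2 also had YSBN2 batch on top, and its chemostat groups overlapped.

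SHM2 encodes the cytosolic enzyme and SHM1 the mitochondrial one. SHM2 fell in the chemostat in both strains, while no change of SHM1 was called in either.

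SHM2 read 13.80, 13.69 and 13.70 in the YSBN2 chemostat, against 14.95, 15.13 and 15.11 in YSBN2 batch, a fall by 1.33 ± 0.07 (2.52-fold, adjusted p = 5.11e-07). The CEN.PK 113-7D arrays read 14.06, 14.11 and 13.99 in the chemostat, against 15.20, 15.19 and 15.07 in batch, a fall by 1.10 ± 0.07 (2.14-fold, adjusted p = 1.46e-06). Chemostat and batch arrays were more than 1 unit apart on average in each strain and did not overlap. In the chemostat SHM2 was lower in YSBN2 by -0.32 ± 0.07 (adjusted p = 0.00959), which became -0.27 and was not called with a common median (adjusted p = 0.0966). In batch the strains overlapped (-0.09 ± 0.07, adjusted p = 0.392).

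SHM1 read 13.81, 13.85 and 14.07 in the YSBN2 chemostat, against 14.20, 14.07 and 14.07 in YSBN2 batch (-0.20 ± 0.10, 95% interval -0.42 to 0.02, adjusted p = 0.121). In CEN.PK 113-7D it read 13.83, 14.14 and 14.03 in the chemostat, against 14.06, 14.20 and 14.17 in batch (-0.14 ± 0.10, 95% interval -0.37 to 0.08, adjusted p = 0.252). All 4 groups overlapped with their neighbours in level, which held for no other gene of the set. The YSBN2 effect was called without the third chemostat array (-0.28, adjusted p = 0.0489). With a common median both were called, at -0.33 and -0.43, so the level of SHM1 relative to the middle of the array was lower in the chemostat.

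The genes that interconvert the folate-bound units fell in the chemostat in both strains. ADE3 encodes the cytosolic C1-tetrahydrofolate synthase, MIS1 its mitochondrial isoenzyme and MTD1 a cytosolic NAD-dependent methylenetetrahydrofolate dehydrogenase. All of them were called lower in each strain.

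ADE3 read 13.32, 13.41 and 13.45 in the YSBN2 chemostat, against 15.14, 15.13 and 15.03 in YSBN2 batch. Its fall by 1.71 ± 0.11 (3.27-fold, adjusted p = 1.53e-06) was the largest among the 9 genes in that strain. In CEN.PK 113-7D it read 13.77, 14.10 and 13.86 in the chemostat, against 14.72, 15.03 and 15.05 in batch, a fall by 1.03 ± 0.11 (2.04-fold, adjusted p = 3.64e-05). Between the strains these effects differed by -0.68 ± 0.15 (adjusted p = 0.0172), or by -0.53 with a common median, where the call was lost (adjusted p = 0.0623). The strains differed in the chemostat (-0.51 ± 0.11, adjusted p = 0.00766) and overlapped in batch (0.17 ± 0.11, adjusted p = 0.292).

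MIS1 fell by more than 1 unit in each strain. It read 12.08, 12.33 and 12.03 in the YSBN2 chemostat, against 13.52, 13.35 and 13.39 in YSBN2 batch (-1.27 ± 0.08, 2.41-fold, adjusted p = 2e-06). The CEN.PK 113-7D arrays read 12.35, 12.41 and 12.36 in the chemostat, against 13.49, 13.45 and 13.45 in batch (-1.09 ± 0.08, 2.12-fold, adjusted p = 4.56e-06). These effects differed by -0.19 ± 0.12, with a 95% interval from -0.45 to 0.08 (adjusted p = 0.357). In the chemostat MIS1 lay lower in YSBN2 without overlap, by -0.23 ± 0.08, which was not called (adjusted p = 0.0756) unless the second YSBN2 chemostat array was left out (-0.32, adjusted p = 0.0127).

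MTD1 read 12.26, 12.14 and 12.26 in the YSBN2 chemostat, against 13.36, 13.23 and 14.11 in YSBN2 batch (-1.35 ± 0.20, adjusted p = 0.000361). The third batch array, the one that stood apart, was 0.82 above the mean of the other YSBN2 batch arrays, and 20% of all probe sets deviated there by at least as much. Without it the difference was -1.08 ± 0.10 (adjusted p = 3.29e-05). In CEN.PK 113-7D MTD1 read 13.05, 12.85 and 12.76 in the chemostat, against 13.62, 13.62 and 13.79 in batch (-0.79 ± 0.20, 1.73-fold, adjusted p = 0.00732). The strain difference of the effects was -0.56 ± 0.28 (adjusted p = 0.229) over all arrays and -0.28 ± 0.13 (adjusted p = 0.157) without that array.

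Between the strains, MTD1 was lower in the YSBN2 chemostat than in the CEN.PK 113-7D chemostat by -0.67 ± 0.20 (adjusted p = 0.0332). That call was lost whichever of the 6 chemostat arrays was left out (adjusted p from 0.059 to 0.0952), while the arrays of the strains did not overlap. In batch the strain difference was -0.11 ± 0.20 (adjusted p = 0.738), and -0.38 ± 0.10 (adjusted p = 0.0136) without the third YSBN2 batch array.

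**Figure D2:**
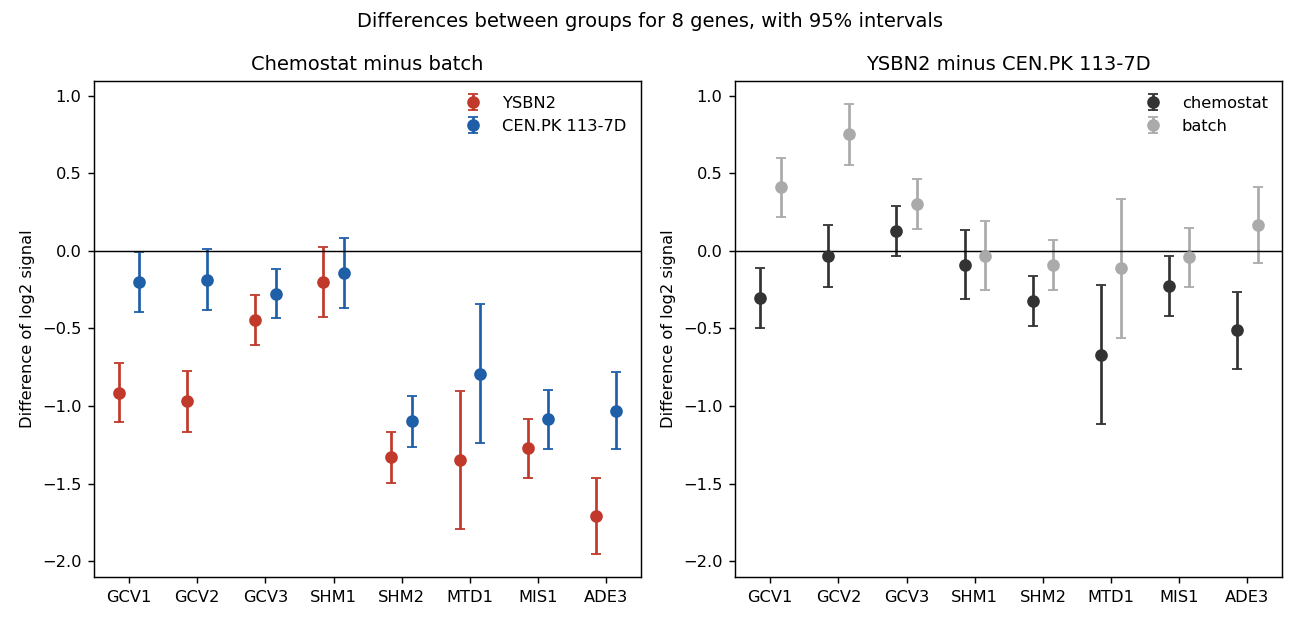
Differences of log2 signal for the 8 genes other than FDH1 are shown as points with 95% intervals from limma, chemostat minus batch for each strain in the left panel and YSBN2 minus CEN.PK 113-7D for each culture in the right panel. GCV1, GCV2 and ADE3 have the widest gaps between the strains on the left, -0.71, -0.78 and -0.68, and SHM1 lies nearest 0 there in both strains.

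Whether the mitochondrial and cytosolic isoenzymes changed alike was asked within each array. The log2 signal of SHM2 was subtracted from that of SHM1, and that of ADE3 from that of MIS1. The probe sets differ, so only changes of these values between groups carry information, not their sign.

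SHM1 minus SHM2 was 0.01, 0.16 and 0.37 in the YSBN2 chemostat, against -0.75, -1.06 and -1.04 in YSBN2 batch. It was -0.23, 0.04 and 0.04 in the CEN.PK 113-7D chemostat, against -1.14, -0.99 and -0.89 in CEN.PK 113-7D batch. The value was higher in the chemostat by 1.13 in YSBN2 (2.19-fold) and by 0.96 in CEN.PK 113-7D (1.94-fold), without overlap between cultures. Each had a two-sided exact permutation p of 0.1, the smallest that 3 against 3 arrays allow (0.2 after Benjamini-Hochberg adjustment over the 8 comparisons). Between the strains the values overlapped in batch (0.06, exact permutation p = 0.7) and in the chemostat (0.235, exact permutation p = 0.3).

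MIS1 minus ADE3 differed less between cultures. It was -1.24, -1.08 and -1.42 in the YSBN2 chemostat, against -1.62, -1.79 and -1.64 in YSBN2 batch, a difference of 0.44 without overlap (exact permutation p = 0.1, adjusted 0.2). The CEN.PK 113-7D values were -1.42, -1.69 and -1.50 in the chemostat, against -1.24, -1.59 and -1.60 in batch, and overlapped (-0.06, exact permutation p = 0.8). The difference between these strain effects, 0.50, was not tested. In batch, MIS1 minus ADE3 was lower in YSBN2 than in CEN.PK 113-7D without overlap (-0.21, exact permutation p = 0.1, adjusted 0.2). The gap was narrow, from -1.62 in YSBN2 to -1.60 in CEN.PK 113-7D, and with 1 array left out the difference ran from -0.27 to -0.09. In the chemostat the strains overlapped (0.29, exact permutation p = 0.2, adjusted 0.32).

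**Figure D3:**
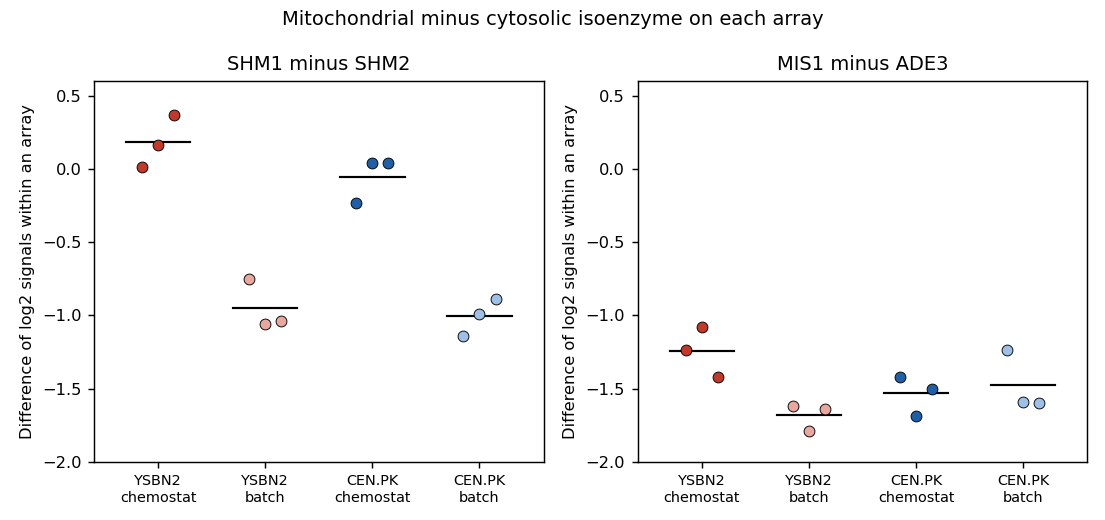
The within-array difference of log2 signals, SHM1 minus SHM2 in the left panel and MIS1 minus ADE3 in the right panel, is plotted with 1 point per array and a line at each group mean. For SHM1 minus SHM2 the chemostat means, 0.18 in YSBN2 and -0.05 in CEN.PK 113-7D, lie about 1 unit above the batch means of -0.95 and -1.01.

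Likeness of profile was measured as the root mean square difference over the 12 arrays, after each gene was centred on its own mean. Among the 5448 other genes, the one most like SHM2 was MIS1, and the one most like MIS1 was SHM2, at 0.12 on the log2 scale. The next nearest to SHM2 was ADE2, a purine synthesis gene, at 0.13, followed by PSD1 at 0.13. No other gene of the set had another member as its nearest profile. GCV1 and GCV2 were 0.20 apart, with 63 genes nearer to GCV1 and 28 nearer to GCV2. For ADE3, SHM2 was the nearest member at 0.19, with 12 genes nearer. FDH1 stood far from the other members (5.96 or more). Its nearest genes were GRE1 (a stress hydrophilin gene, 0.58), SFC1 (a mitochondrial succinate-fumarate carrier gene, 0.60) and POX1 (the acyl-CoA oxidase gene, 0.62). GRE1 also had a lower chemostat mean in YSBN2 (12.24) than in CEN.PK 113-7D (14.72).

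MTD1 was nearest to SQT1, PWP1 and ERB1, each at 0.14. GCV3 was nearest to ARP3 (0.08) and then to the isocitrate dehydrogenase gene IDH2 (0.08). SHM1, whose groups differed least, was nearest to RPL4A (0.06), a ribosomal protein gene. The nearest profile to GCV1 was HST1 (0.12), to GCV2 KEX1 (0.12) and to ADE3 CDC3 (0.15).

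Of 42 further genes of the pathway, in 7 lists, 40 were measured, and FDH2 and ADE5,7 had no probe set named to them. Their counts stand against the shares of all probe sets given above, 52.6% called in YSBN2 (30.6% higher and 21.9% lower) and 56.1% in CEN.PK 113-7D (33.9% higher and 22.2% lower). In the supply of serine and glycine, 1 of 8 genes was called higher in the YSBN2 chemostat and 4 lower, and in CEN.PK 113-7D 2 were called higher and 4 lower. The 4 of 8 called lower in each strain stand beside 21.9% of all probe sets in YSBN2 and 22.2% in CEN.PK 113-7D. The 1 and 2 called higher stand beside 30.6% and 33.9%. The 4 lower genes were in both strains SER1, SER2, SER3 and SER33, which make serine from a glycolytic intermediate. The phosphatase gene SER2 fell most (-2.32 ± 0.17 in YSBN2 and -2.06 ± 0.17 in CEN.PK 113-7D). SER33 fell less in YSBN2 (-0.46 ± 0.09) than in CEN.PK 113-7D (-0.98 ± 0.09), a difference of 0.53 ± 0.13 (adjusted p = 0.0274).

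AGX1, which encodes the alanine:glyoxylate aminotransferase that makes glycine from glyoxylate, was higher in the chemostat. It read 12.86, 12.95 and 13.35 in the YSBN2 chemostat, against 9.15, 9.17 and 9.14 in YSBN2 batch. In CEN.PK 113-7D it read 14.38, 14.33 and 14.40 in the chemostat, against 6.55, 7.87 and 7.76 in batch. The groups were far apart in both strains, and the rise was 3.90 ± 0.30 in YSBN2 and 6.98 ± 0.30 in CEN.PK 113-7D. These effects differed by -3.08 ± 0.42 (adjusted p = 0.0014), in the same direction as for FDH1, with YSBN2 lower in the chemostat (-1.32 ± 0.30) but, unlike FDH1, higher in batch (1.76 ± 0.30). GLY1, the threonine aldolase gene, was called higher in the CEN.PK 113-7D chemostat (0.75 ± 0.28, adjusted p = 0.0457), a call not made with a common median. In YSBN2 GLY1 was not called (-0.11 ± 0.28, adjusted p = 0.785). Its level lay 1.17 above the other YSBN2 batch arrays in the one that stood apart, and without that array the YSBN2 difference was 0.28 ± 0.13 (adjusted p = 0.107).

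Genes that use the carbon mostly fell. In purine synthesis, which consumes 10-formyl-tetrahydrofolate, 9 of 9 measured genes were called lower in the YSBN2 chemostat and 8 of 9 in CEN.PK 113-7D, with medians of -0.94 and -0.70. ADE4, the first committed enzyme, fell in both strains (-1.82 ± 0.13 in YSBN2 and -1.55 ± 0.13 in CEN.PK 113-7D). ADE16 was the exception in CEN.PK 113-7D (0.21 ± 0.11, adjusted p = 0.117). The thymidylate synthase gene CDC21 fell as well (-1.46 ± 0.21 in YSBN2 and -1.29 ± 0.21 in CEN.PK 113-7D). It was 1 of 3 genes called lower among 5 one-carbon users in each strain, with the methionine synthase gene MET6 and the methylenetetrahydrofolate reductase gene MET12. With a common median 3 were called lower in YSBN2 and 5 in CEN.PK 113-7D, against 27.4% and 37.5% of all probe sets. Among the 5 was FMT1, which lay at the floor in every group. Its CEN.PK 113-7D difference was 0.0023 as deposited and -0.28 with a common median, the size of the shift of the arrays.

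Of 9 genes for folate synthesis and polyglutamation, 5 were called lower in the YSBN2 chemostat and 3 in CEN.PK 113-7D. Of all probe sets, 21.9% and 22.2% were called lower in these comparisons. With a common median 7 of the 9 were called lower in each strain, against 27.4% of all probe sets in YSBN2 and 37.5% in CEN.PK 113-7D. FOL1 fell in both (-0.45 ± 0.10 in YSBN2 and -1.11 ± 0.10 in CEN.PK 113-7D). ABZ2, of p-aminobenzoate synthesis, rose by 0.76 ± 0.12 in YSBN2 and by 0.74 ± 0.12 in CEN.PK 113-7D. The L protein gene LPD1, whose product the glycine cleavage complex shares with 2-oxo acid dehydrogenases, was not called lower in the chemostat in either strain. It differed by 0.07 ± 0.09 in YSBN2 (adjusted p = 0.515) and was called higher in CEN.PK 113-7D (0.43 ± 0.09, adjusted p = 0.00243), a call not made with a common median. In batch LPD1 was called higher in YSBN2 than in CEN.PK 113-7D (0.39 ± 0.09, adjusted p = 0.00906), as were GCV1, GCV2 and GCV3, and that call was lost with a common median (adjusted p = 0.068). The strain difference of its chemostat effect was -0.35 ± 0.12 (adjusted p = 0.0903), and -0.42 ± 0.11 without the third YSBN2 batch array (adjusted p = 0.0246). Of the 4 genes for the L protein and lipoylation, 1 was called higher in the YSBN2 chemostat (LIP5) and 2 in CEN.PK 113-7D (LPD1 and LIP5), and 0 were called lower in either strain. With a common median the split turned round: 0 were called higher, and LIP2 was called lower in YSBN2 and LIP2 and AIM22 in CEN.PK 113-7D. LIP2 and AIM22, for protein lipoylation, were called lower in YSBN2 than in CEN.PK 113-7D in batch (-0.84 ± 0.25 and -0.91 ± 0.18) and in the chemostat (-0.97 ± 0.25 and -0.69 ± 0.18).

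On the formaldehyde side, which yields formate from a glutathione adduct, neither SFA1 (0.23 ± 0.13 in YSBN2 and 0.01 ± 0.13 in CEN.PK 113-7D) nor YJL068C in CEN.PK 113-7D (0.44 ± 0.25) was called for culture. Without the third YSBN2 batch array SFA1 was called higher in the YSBN2 chemostat (0.35 ± 0.12, adjusted p = 0.0326). YJL068C, the S-formylglutathione hydrolase gene, was called lower in the YSBN2 chemostat (-0.67 ± 0.25, adjusted p = 0.0445). SFA1 was lower in YSBN2 than in CEN.PK 113-7D in batch (-0.71 ± 0.13) and in the chemostat (-0.49 ± 0.13). YJL068C was higher in YSBN2 in batch (0.81 ± 0.25, adjusted p = 0.0349), a call lost with a common median (adjusted p = 0.0541), and was not called between the strains in the chemostat (-0.30 ± 0.25). Its chemostat effects differed by -1.11 ± 0.35 between the strains (adjusted p = 0.0633), and by -1.22 ± 0.37 without the third YSBN2 batch array (adjusted p = 0.0429). Of 3 regulators, 1 was called higher and 1 lower in the YSBN2 chemostat, and 2 were called higher in CEN.PK 113-7D (PHO2 and GCN4). With a common median 0 were called higher in either strain and BAS1 alone was called lower, in YSBN2. BAS1, an activator of purine and glycine cleavage genes, read 11.36, 11.55 and 11.43 in the YSBN2 chemostat, against 12.29, 11.80 and 13.55 in YSBN2 batch. That last value comes from the array that stood apart, and the YSBN2 difference of BAS1 was -1.10 ± 0.36 with it (adjusted p = 0.0268) and -0.60 ± 0.16 without it (adjusted p = 0.0129). In CEN.PK 113-7D BAS1 was not called (-0.15 ± 0.36). GCN4, the activator of amino acid synthesis genes, was called higher in the chemostat of both strains (0.26 ± 0.07 in YSBN2 and 0.52 ± 0.07 in CEN.PK 113-7D), in neither with a common median.

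**Figure D4:**
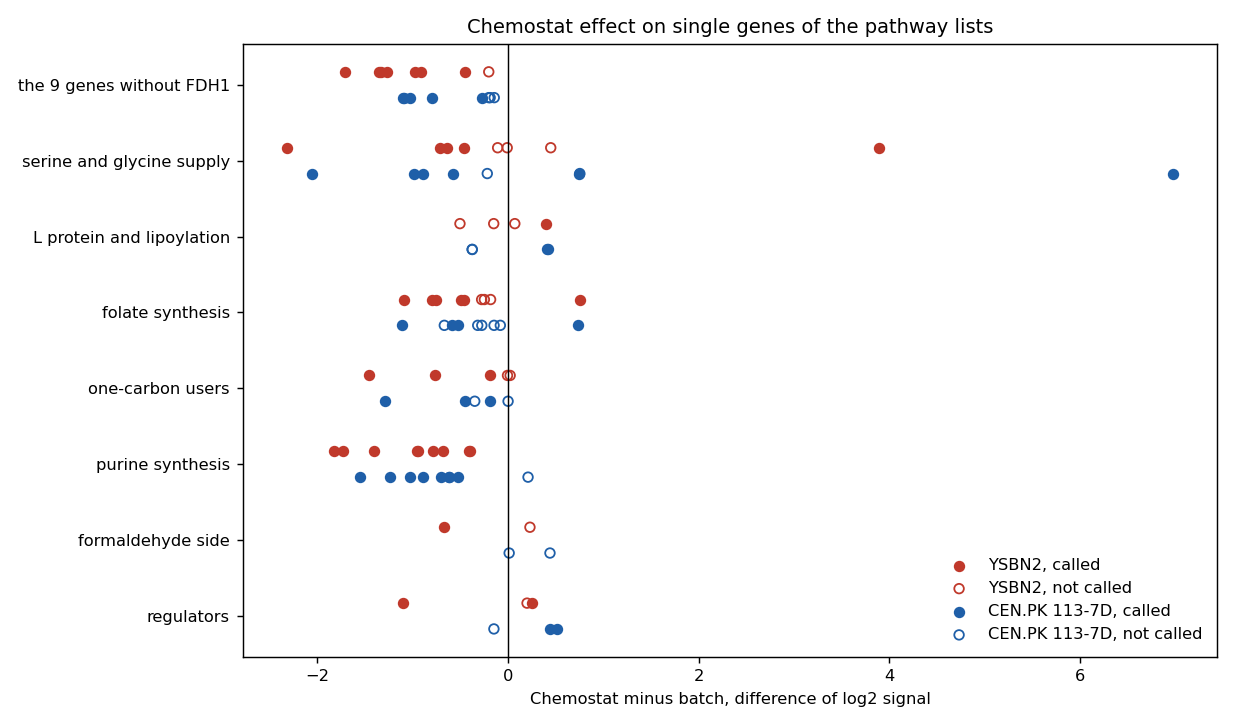
Chemostat minus batch differences of log2 signal are shown for the 8 genes other than FDH1 in the top row and for the measured genes of each list, 1 point per gene, YSBN2 above CEN.PK 113-7D, with filled points for genes called by limma. AGX1, at 3.90 in YSBN2 and 6.98 in CEN.PK 113-7D, lies far to the right of the other points, and all called purine synthesis genes lie left of 0.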

How the data were processed

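Total RNA of 12 cultures, 3 per group, was labelled with biotin and hybridised to Affymetrix arrays, per the labels. The deposited values were taken as log2 signals from their range, since the labels do not state the log base. R 2.6, affy and RMA are named per the submitters' processing notes, and no source used here states their settings or order. The table holds 5716 probe sets with no missing value. Of these 5498 were paired with 1 gene and 218 with none, and names were updated through RefSeq (assembly R64, used for names only). The number of arrays limits the precision. limma 3.58.1 in R 4.3.3 fitted 1 mean per group over all 12 arrays, with 5 contrasts, eBayes, two-sided p-values and Benjamini-Hochberg adjustment over all probe sets. No filter was applied. The fit was tested on simulated data. Isoenzyme differences within arrays were compared by exact permutation tests (scipy 1.17.1).

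The genes and lists were chosen with earlier results of these data known. All 9 genes and any gene of the 7 lists were open to naming, with the 3 nearest profiles of each of the 9 and the genes that check the labels. Replicate numbers in the labels name no shared day. Deviations of same-numbered arrays correlated at 0.50, 0.28 and 0.31 between the CEN.PK 113-7D cultures, and pairing was accepted there, from the data only. The main results of that comparison nevertheless come from the fit without pairing, and the isoenzyme tests are unpaired. Results with the replicate number as a block are given as an alternative setting. The smallest correlations of the other comparisons were -0.17, 0.00 and -0.10, and no pairing was taken.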

Additional observations from a re-analysis of the deposited data

Results flagged for a closer look

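The chemostat effect differed between the strains, by limma's test of that difference at an adjusted p under 0.05, for 4 of the 9 genes. YSBN2 minus CEN.PK 113-7D was -2.23 for FDH1, -0.71 for GCV1, -0.78 for GCV2 and -0.68 for ADE3. Without the third YSBN2 batch array these were -2.23, -0.68, -0.85 and -0.72, and each was still called. Among the further pathway genes it was -3.08 for AGX1, 0.65 for FOL1, 0.53 for SER33, -0.51 for ADE2, -0.49 for ADE8 and -0.62 for ADE16. With a common array median the differences of ADE3, ADE2, ADE8 and ADE16 were not called. The FDH1 value is given as a description and its call is not read as a test, because its rise in CEN.PK 113-7D was known when the gene was chosen.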

How the results depend on the processing

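Among recomputed differences of the 9 genes, 663 kept their direction and their side of the threshold, 19 lost their call, 13 gained one and 11 changed sign, none of the last called. The count of genes called lower in YSBN2 in the chemostat was 5 and became 3 with a common array median, 3 at an adjusted p under 0.01, and 3 to 5 with 1 array left out. The count higher in YSBN2 in batch was 3 and became 1 with the replicate number as a block within the 6 arrays. As a block over all 12 arrays it left every count of the 9 genes as it was (6 in CEN.PK 113-7D, 8 in YSBN2). In the CEN.PK 113-7D pair the block within 6 arrays changed no call but that of GCV1. Signs turned for FDH1 in batch (-0.10 with a common median, -0.0256 with quantile normalization, -0.15 with cyclic loess, -0.0007 to 0.0053 with 1 array left out), for GCV2 between strains in the chemostat (0.0198 with a common median, 0.0190 with quantile normalization, -0.0912 to 0.0358 with 1 array left out), for MTD1 in batch (-0.38 to 0.0553 with 1 array left out) and for the strain difference of the SHM1 effect (0.0945 with a common median, 0.0272 with quantile normalization, -0.14 to 0.0130 with 1 array left out). With 1 array left out, SHM1 minus SHM2 between strains in batch ran from -0.0398 to 0.12, and MIS1 minus ADE3 between CEN.PK 113-7D cultures from -0.12 to 0.0625. The cause was not tested. Of the counts of called genes in the 7 further lists, recomputed with settings added after the data were seen, 67 stayed close and 24 moved. No gene of the set has a second probe set, so that alternative gave no value, nor did FDH1 without the 25% dimmest probe sets. At the floor the arrays give no order.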
